A study of Homo sapiens with 12 samples.

Results

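The ABC transporter genes are described here, taken as every gene whose symbol is ABC, a letter from A to G and a number, from probe sets that the platform annotation assigns to a single gene. This rule found 45 genes among the 19775 genes of the array, measured by 99 probe sets, and the probe set with the highest average signal on the 12 arrays stood for its gene. Of the 45 genes, 24 had a value over log2 4 on at least 3 arrays and were tested, as were 11184 genes in all. The other 21 were not tested. RNA came from HK-2 cells, an immortalised epithelial line from the human renal proximal tubule, grown in a defined medium with EGF, hydrocortisone, insulin and transferrin. The 4 groups, of 3 biological replicates each, were cells given Aa at a dose described as high for 24 h, cells given Aa for 48 h, and a vehicle control for each time. The sources used here name neither the compound behind Aa nor its dose. The study sought expression signatures of toxicity to the kidney, and all groups share the single cell line.

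ABC proteins use ATP bound at a pair of nucleotide-binding domains to move substrates across membranes, and most of them are exporters. Members of subfamilies B, C and G pump drugs, conjugates and organic anions out of cells. In the proximal tubule, ABCB1, ABCC2, ABCC4 and ABCG2 lie on the apical membrane and carry solutes into the urine. Subfamily A moves lipids, subfamily D serves peroxisomes and lysosomes, and the proteins of subfamilies E and F lack membrane domains and act on ribosomes.

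Values are the deposited log2 expression values of the arrays, in which log2 4 was taken as the limit above background. Array values are listed in the order of replicates 1 to 3, and changes are differences of means of 3 arrays with the standard error (SE) from limma. Within each group the arrays correlated at 0.994 to 0.997. The control transcripts ACTB and GAPDH changed by -0.09 and 0.03 at 24 h and by -0.29 and -0.08 at 48 h (log2), and neither passed the test at either time. As a check of RNA quality, the excess of 3′ over 5′ signal of the control transcripts was 0.431 to 0.68 on the Aa arrays at 48 h and 0.235 to 0.418 on their controls (log2). At 24 h it was 0.264 to 0.547 on Aa arrays and 0.246 to 0.355 on controls, and its part in the results was not tested. Of 12 proximal tubule markers, 9 did not pass the limit on 3 arrays, among them the endocytic receptors LRP2 and CUBN and the organic anion uptake carriers SLC22A6 and SLC22A8. Of the 3 that did, SLC3A1 fell at both times, by 1.96 and 3.50 on the log2 scale (adjusted p = 0.00361 and 4.30e-05). SLC4A4 fell by 3.06 at 48 h (adjusted p = 8.29e-05), and DPP4 did not pass. All 6 epithelial markers were over the limit, with 3 lower at 24 h, and 2 higher and 3 lower at 48 h. CDH1 fell by 1.68 and 1.27 (adjusted p = 0.00450 and 0.0154) and KRT19 by 1.11 and 1.37 (adjusted p = 0.000678 and 9.48e-05), while KRT7 and KRT8 rose at 48 h. The part of these marker changes in the ABC results was not tested. None of the leukocyte markers on the array (4 of 6) and none of the 4 endothelial markers was over the limit. Among fibroblast markers, DCN, COL1A1 and LUM (3 of 5) were over it. Of the distal nephron markers on the array (4 of 5), 1 was over the limit on enough arrays to be tested, and it passed at neither time. In RNA from a whole culture, fewer cells expressing a gene and less RNA per cell cannot be told apart.

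The tested ABC genes moved in both directions under Aa, and 11 of 24 passed in the same direction at both times. At 24 h 12 of 24 passed limma's test at an adjusted p under 0.05, 7 higher and 5 lower, close to the background of 49.1% of all genes tested (26.3% higher and 22.8% lower). At 48 h 17 of 24 passed, 12 higher and 5 lower, against 64.5% of all genes (30.6% higher and 33.9% lower). The share that passed was therefore near that of all genes at each time. Changes of at least 1 on the log2 scale that passed were seen in 9 genes at 24 h and 10 at 48 h, where the background was 20.7% and 31.9%. The 9 include ABCC6P1, tested only through its Aa arrays at 24 h, whose change was 0.25 with a floor at log2 4 (adjusted p = 0.147). ABCA12, counted at both times, had Aa values under the limit. The median log2 change of the 24 genes was 0.29 at 24 h and 0.45 at 48 h, beside 0.02 and -0.03 over all genes tested. With arrays scaled to their hybridisation controls the medians were 0.010 and 0.013, beside -0.26 and -0.47 over all genes. Over the 45 ABC genes with no filter they were -0.022 and 0.010, and with a floor at log2 4 the 48 h median was 0.29.

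Calls of higher at both times were made for ABCA11P, ABCB6, ABCB10, ABCC3, ABCC6P1, ABCD4 and ABCF3 (7 of 24, against 20.1% of all genes). ABCC6P1 is counted only through its Aa arrays at 24 h, the sole ones over the limit, and with a floor at log2 4 it passed at neither time. With a filter of 6 arrays over log2 4, which leaves it out, 6 of 23 ABC genes were higher at 24 h and 11 at 48 h. Over all genes that filter gave 2868 higher at 24 h and 3321 at 48 h, of 10902. Lower levels at both times were found for ABCA12, ABCA17P, ABCC1 and ABCC4 (4 of 24, against 19.1%). ABCA7, ABCC10, ABCE1, ABCF1 and ABCF2 passed as higher at 48 h and not at 24 h, and ABCC5 passed as lower at 48 h and not at 24 h. ABCB1 passed as lower at 24 h and not at 48 h. ABCA1, ABCA2, ABCA3, ABCB8, ABCB9 and ABCD3 passed at neither time, and no gene passed in opposite directions. Across the 24 genes the 24 h and 48 h changes had a Spearman correlation of 0.923, beside 0.807 over all 11184 genes. The changes had the same sign in 21 of 24. With the replicate number as a block, 11 ABC genes were higher at 24 h in place of 7, while over all genes the count went from 2942 to 3633 of 11184.

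**Figure D1:**
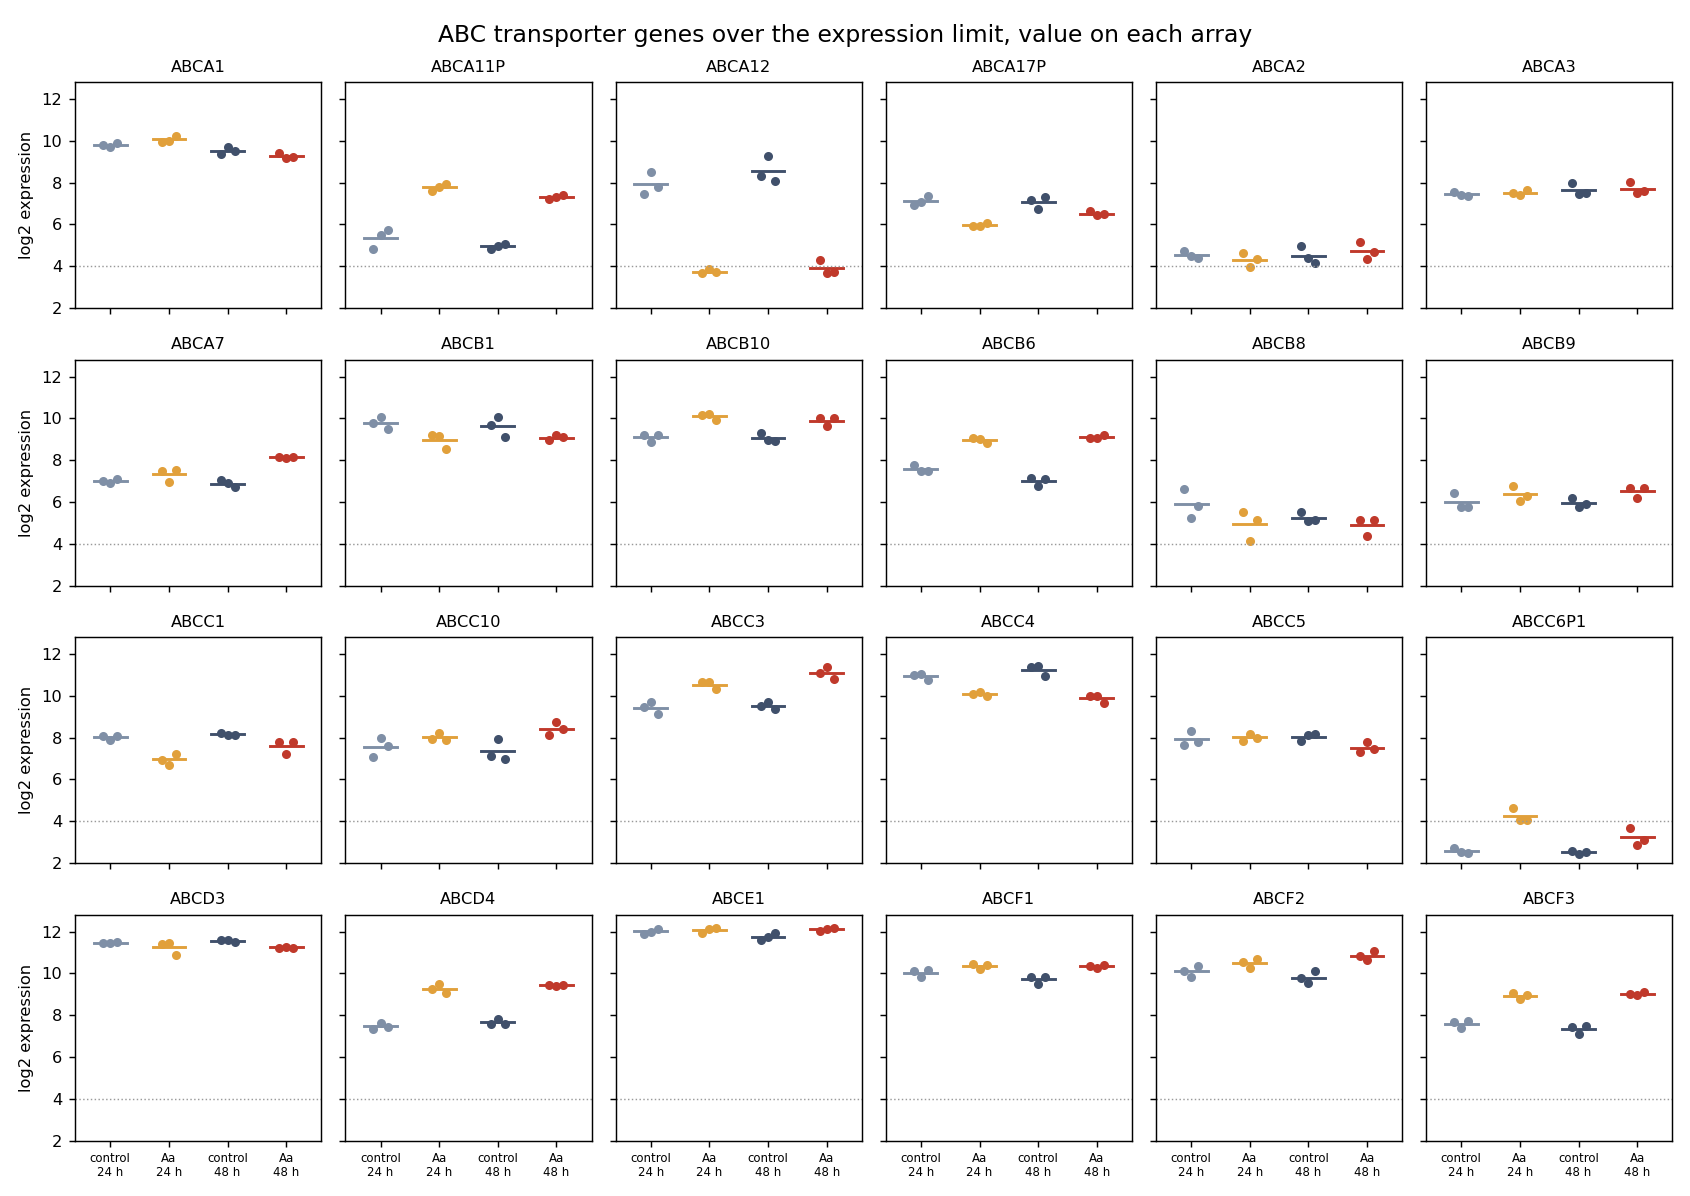
Log2 expression on each array (vertical axis) for the 24 tested ABC genes, in control and Aa groups at 24 h and 48 h (horizontal axis). Points are arrays in the order of their replicate numbers, bars are means of 3, and the dotted line is the limit of log2 4. ABCA12 fell to the limit on the Aa arrays, and ABCB6, ABCD4 and ABCF3 lay higher on all 6 Aa arrays than on all 6 control arrays.

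The promoters of the genes that passed at both times with a change of at least 1 (log2) at either are shown, because these genes moved the same way at both times and their promoters differ in base composition. RefSeq entries (GRCh38.p14) were held for ABCA12, with 2 start sites, ABCB6, ABCC4, ABCD4 and ABCF3. The genes ABCA11P, ABCA17P, ABCC1, ABCC3 and ABCC6P1 met the same rule. Each sequence is the 250 bases before the start, 5′ to 3′ on the gene's strand. Capitals mark matches on either strand to the antioxidant response element core TGACNNNGC, the E-box CACGTG, the GC box GGGCGG or the cAMP response element TGACGTCA.
ABCA12 (chr2:215032087-215032336, minus strand): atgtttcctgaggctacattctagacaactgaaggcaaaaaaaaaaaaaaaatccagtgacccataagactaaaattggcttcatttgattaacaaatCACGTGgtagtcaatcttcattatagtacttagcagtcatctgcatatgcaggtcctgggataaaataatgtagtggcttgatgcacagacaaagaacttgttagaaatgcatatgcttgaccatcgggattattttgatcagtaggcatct
ABCA12 (chr2:215138627-215138876, minus strand): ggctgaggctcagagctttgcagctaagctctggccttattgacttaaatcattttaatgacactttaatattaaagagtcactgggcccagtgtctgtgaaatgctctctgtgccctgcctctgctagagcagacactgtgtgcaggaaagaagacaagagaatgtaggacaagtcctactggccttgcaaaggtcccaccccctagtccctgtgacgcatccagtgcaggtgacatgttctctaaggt
ABCB6 (chr2:219218959-219219208, minus strand): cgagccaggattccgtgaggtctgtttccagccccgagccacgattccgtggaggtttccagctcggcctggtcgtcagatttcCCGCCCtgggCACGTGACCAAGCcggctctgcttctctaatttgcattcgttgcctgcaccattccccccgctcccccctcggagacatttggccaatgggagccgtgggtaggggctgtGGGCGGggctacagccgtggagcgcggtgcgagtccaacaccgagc
ABCC4 (chr13:95301452-95301701, minus strand): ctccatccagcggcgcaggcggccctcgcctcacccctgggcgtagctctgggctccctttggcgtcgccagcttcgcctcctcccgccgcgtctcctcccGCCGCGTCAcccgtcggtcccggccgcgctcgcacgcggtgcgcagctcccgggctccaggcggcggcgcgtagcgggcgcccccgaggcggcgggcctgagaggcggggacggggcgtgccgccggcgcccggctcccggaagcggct
ABCD4 (chr14:74302935-74303184, minus strand): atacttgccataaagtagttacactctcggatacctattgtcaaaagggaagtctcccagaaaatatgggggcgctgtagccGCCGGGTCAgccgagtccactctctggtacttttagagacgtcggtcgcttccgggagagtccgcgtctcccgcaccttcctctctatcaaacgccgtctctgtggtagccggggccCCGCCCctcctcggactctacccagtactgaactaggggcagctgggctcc
ABCF3 (chr3:184185949-184186198, plus strand): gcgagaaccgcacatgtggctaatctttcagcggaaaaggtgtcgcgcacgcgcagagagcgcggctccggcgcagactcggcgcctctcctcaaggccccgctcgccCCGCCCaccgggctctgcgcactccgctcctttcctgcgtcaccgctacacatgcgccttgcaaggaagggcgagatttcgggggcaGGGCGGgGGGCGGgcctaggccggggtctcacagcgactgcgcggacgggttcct
Over 300 bases, which include the 50 bases after the start, the share of G and C was read for each. ABCB6 stood at 65.7% with 23 CpG, ABCD4 at 61.0% with 24 CpG and ABCF3 at 68.3% with 37 CpG. These 3 genes were higher at both times, as was ABCB10, whose change was under 1 and whose promoter held 77.3% and 39 CpG. Of the genes that were lower, ABCC4 had 79.7% and 47 CpG, and 34.7% and 48.7%, with 2 CpG and 1 CpG, were the values at the starts of ABCA12. The median of all 35116 promoters in the table was 58.7% with 14 CpG. TGACNNNGC matched in ABCB6, ABCC4 and ABCD4, and in 13.3% of all promoters. CACGTG matched in ABCB6, where it overlapped TGACNNNGC, and at 1 start of ABCA12, and in 7.26% of all promoters. GGGCGG matched in ABCB6 (2 matches), ABCD4 (1) and ABCF3 (3), and in 45% of all promoters. TGACGTCA matched in none of the 6 and in 1.85% of all. In the 25 promoters held for 19 of the tested genes, the counts with a match were 8 for TGACNNNGC, 6 for CACGTG, 17 for GGGCGG and 1 for TGACGTCA, the last in ABCE1. A match is a run of letters and not a known binding site.

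Among the sterol and phospholipid exporters, ABCA7 rose at 48 h and ABCA1 did not pass at either time. ABCA1 loads cholesterol and phospholipid onto apolipoprotein A-I. It read 9.96, 10.01 and 10.23 on the Aa arrays and 9.80, 9.69 and 9.89 on the controls at 24 h. At 48 h the values were 9.40, 9.17 and 9.25 against 9.35, 9.70 and 9.51. The Aa arrays were above all controls at 24 h, while the groups overlapped at 48 h. The log2 changes were 0.27 (SE 0.120, limma adjusted p = 0.0821) and -0.25 (SE 0.120, adjusted p = 0.0884), and the first turned to -0.01 when arrays were scaled to their hybridisation controls. Without control replicate 1 at 48 h the later change was -0.34 (adjusted p = 0.0429), and under the hybridisation-control scaling it was -0.69 (adjusted p = 0.00185).

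ABCA7, a relative of ABCA1 that exports phospholipid and acts in phagocytosis, read 7.49, 6.94 and 7.53 with Aa and 7.00, 6.92 and 7.10 without at 24 h. By 48 h the values were 8.15, 8.10 and 8.16 with Aa and 7.03, 6.91 and 6.70 without. Aa replicate 2 lay among the controls at 24 h, and all 3 Aa arrays were far above them at 48 h. The gene was 2.40-fold higher at 48 h (log2 change 1.26, SE 0.153, adjusted p = 3.16e-05), and its change of 0.31 at 24 h did not pass (SE 0.153, adjusted p = 0.114). Without Aa replicate 2 at 24 h that change was 0.50 (adjusted p = 0.00594). The 48 h change exceeded the 24 h change by 0.95 (SE 0.216, adjusted p = 0.0143), and under the hybridisation-control scaling by 0.79 (adjusted p = 0.0572). The other 6 genes of this role on the array, ABCB4, ABCB11, ABCG1, ABCG4, ABCG5 and ABCG8, were at background on every array. ABCG1, which passes cholesterol to mature lipoprotein particles, read between 2.76 and 2.86.

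The lipid transporters of other membranes held the largest fall. ABCA12 carries glucosylceramide into the lamellar granules of keratinocytes. It read 3.67, 3.85 and 3.73 on the Aa arrays and 7.46, 8.52 and 7.82 on the controls at 24 h. The 48 h values were 4.29, 3.69 and 3.74 against 8.32, 9.29 and 8.09. On 5 of 6 Aa arrays the value lay under the limit of log2 4, and all controls were far above it. Taking those arrays at log2 4, ABCA12 was at least 15.2-fold lower at 24 h and at least 22.1-fold lower at 48 h. Its adjusted p of 2.45e-06 and 6.38e-07 came from fits that used the Aa values under the limit, not from these folds. ABCA12 met the filter through its control arrays, in which it was high. Among the promoters printed above, its starts have the fewest CpG, and ABCC4, also lower at both times, has the most (47). A link of CpG with change was not tested. ABCA3, which fills the surfactant granules of the lung, changed by 0.09 (adjusted p = 0.691) and 0.07 (adjusted p = 0.730), turned to -0.20 and -0.37 under the hybridisation-control scaling. Without Aa replicate 1 or control replicate 2 at 48 h its later value was -0.08 or -0.03. ABCA2, a lysosomal lipid transporter, changed by -0.21 (adjusted p = 0.541) and 0.24 (adjusted p = 0.449), the latter turned to -0.21 by that scaling. ABCA4, ABCA5, ABCA6, ABCA8, ABCA9 and ABCA13 were at background.

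Among the exporters of drugs, conjugates and organic anions, ABCC3 rose at both times while ABCC1 and ABCC4 fell at both. Of the 6 tested genes of this role, 1 was higher and 3 lower at 24 h, and 2 were higher and 3 lower at 48 h. The median log2 change was -0.35 and -0.53, beside 0.02 and -0.03 over all genes. ABCC3 (MRP3) exports glucuronides and bile salts across the basolateral membrane. Its values with Aa were 10.65, 10.64 and 10.32 at 24 h, against 9.46, 9.68 and 9.12. At 48 h they were 11.12, 11.38 and 10.81 against 9.52, 9.69 and 9.37. Every Aa array was above every control array. ABCC3 was 2.17-fold higher at 24 h (log2 change 1.12, SE 0.182, adjusted p = 0.000457) and 2.98-fold at 48 h (1.57, adjusted p = 2.23e-05).

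ABCC4 (MRP4), an apical exporter of organic anions and cyclic nucleotides in the tubule, moved the other way. It read 10.09, 10.17 and 9.97 with Aa and 11.00, 11.03 and 10.76 without at 24 h. The readings at 48 h were 9.98, 9.98 and 9.68 with Aa and 11.36, 11.44 and 10.97 without. The groups were apart at both times. ABCC4 was 1.81-fold lower at 24 h (log2 change -0.85, SE 0.145, adjusted p = 0.000595) and 2.60-fold lower at 48 h (-1.38, adjusted p = 1.10e-05). ABCC1 (MRP1), which exports glutathione conjugates, read 6.95, 6.70 and 7.24 with Aa and 8.07, 7.90 and 8.07 without at 24 h. At 48 h its values were 7.79, 7.21 and 7.78 against 8.22, 8.12 and 8.12. The groups did not overlap, and Aa replicate 2 was the lowest at 48 h. ABCC1 was 2.07-fold lower at 24 h (-1.05, SE 0.172, adjusted p = 0.000480) and 1.47-fold lower at 48 h (-0.56, adjusted p = 0.0147). Without that replicate the 48 h change was -0.37 (adjusted p = 0.0552).

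ABCB1, or P-glycoprotein, exports many hydrophobic drugs. It read 9.22, 9.18 and 8.52 with Aa and 9.79, 10.07 and 9.47 without at 24 h, with no overlap. At 48 h the values were 8.94, 9.21 and 9.09 against 9.67, 10.08 and 9.12, and the groups overlapped. ABCB1 was 1.75-fold lower at 24 h (log2 change -0.80, SE 0.258, adjusted p = 0.0237), and its 48 h change of -0.54 did not pass (adjusted p = 0.0862). The difference between the times was 0.26 (SE 0.365, adjusted p = 0.652), so the changes were not shown to differ. The 24 h call was lost without Aa replicate 3 (-0.58, adjusted p = 0.0940), control replicate 1 (-0.80, adjusted p = 0.0576) or control replicate 2 (-0.66, adjusted p = 0.0900). It was also lost over all 19775 genes (adjusted p = 0.0602) and in the mean of the probe sets (-0.54, adjusted p = 0.0573). At 48 h the gene passed with the replicate block (adjusted p = 0.0133), without control replicate 3 at -0.80 (adjusted p = 0.0162), in the mean of the probe sets at -0.57 (adjusted p = 0.0376) and under the hybridisation-control scaling at -0.98 (adjusted p = 0.00537).

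ABCC10, an exporter of lipophilic anions, read 7.93, 8.23 and 7.87 with Aa and 7.10, 7.97 and 7.61 without at 24 h. Its 48 h values were 8.12, 8.76 and 8.42 with Aa and 7.13, 7.93 and 6.98 without. The groups overlapped only at 24 h. The gene was 2.13-fold higher at 48 h (log2 change 1.09, SE 0.280, adjusted p = 0.00552), and its 24 h change of 0.45 did not pass (adjusted p = 0.208, or 0.0273 with the replicate block and 0.0113 in the mean of the probe sets). ABCC5, an exporter of cyclic nucleotides, fell by 0.52 on the log2 scale at 48 h (SE 0.185, adjusted p = 0.0278), from 7.85, 8.12 and 8.16 to 7.31, 7.78 and 7.47. That call was lost without Aa replicate 1 (-0.42, adjusted p = 0.100) or replicate 3 (-0.50, adjusted p = 0.0706), and without control replicate 2 (-0.48, adjusted p = 0.0771) or replicate 3 (-0.47, adjusted p = 0.0810). It was also lost under quantile normalisation (-0.46, adjusted p = 0.0591), over all 19775 genes (adjusted p = 0.0572) and with the probe set of highest variance (-0.24, adjusted p = 0.479). At 24 h ABCC5 changed by 0.09 (adjusted p = 0.707), which turned to -0.04 without control replicate 1 and to -0.19 under the hybridisation-control scaling.

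ABCC2 (MRP2), the apical exporter of glucuronide and glutathione conjugates, was the gene closest to being tested, with 1 array over the limit. It read 4.73, 2.91 and 3.70 with Aa at 24 h and 2.30, 2.29 and 2.28 on the controls. At 48 h its values were 2.28, 2.38 and 2.34 against 2.24, 2.27 and 2.28. Only Aa replicate 1 at 24 h was over the limit, and the values under it carry no order. ABCG2, an apical urate and drug exporter, read between 2.16 and 2.20 on all arrays. Just inside the limit, ABCC6P1 had 3 arrays over log2 4. ABCB5, ABCC11 and ABCC12 were at background, as were the potassium channel subunits ABCC8 and ABCC9 with their channel partners KCNJ8 and KCNJ11, neither of which passed the limit. No member of subfamily G was tested (0 of 5). The 20 untested genes other than ABCC2 ranged from log2 2.05 to 3.07.

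**Figure D2:**
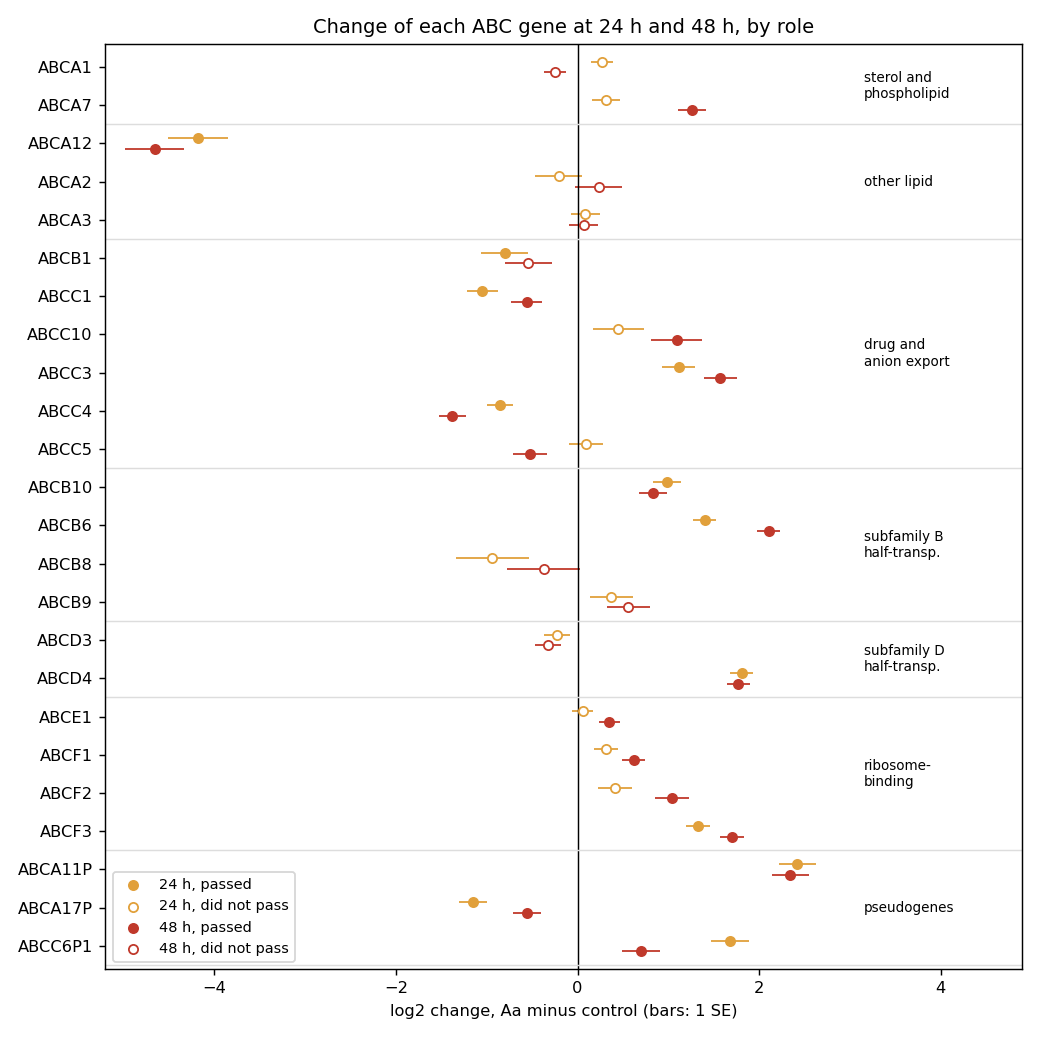
Log2 change, Aa minus control, of each tested ABC gene (horizontal axis), grouped by role, at 24 h (orange) and 48 h (red). Points are changes from 3 Aa and 3 control arrays, bars are 1 SE, and filled points passed at an adjusted p under 0.05. The ribosome-binding genes all passed as higher at 48 h, while the drug and anion exporters lay on both sides of 0.

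The mitochondrial and lysosomal transporters of subfamily B, which pair up to form a working pump, included ABCB6 and ABCB10, higher at both times. ABCB6 is a porphyrin transporter found in mitochondria and in endosomes and lysosomes. It read 9.08, 9.00 and 8.84 with Aa and 7.77, 7.48 and 7.47 without at 24 h. At 48 h the values were 9.08, 9.07 and 9.19 against 7.12, 6.78 and 7.11. Aa arrays lay close together at both times, and the controls of 48 h were all below those of 24 h. ABCB6, whose promoter holds the overlapping CACGTG and TGACNNNGC matches, was 2.64-fold higher at 24 h (log2 change 1.40, SE 0.126, adjusted p = 7.05e-06). At 48 h it was 4.30-fold higher (2.10, adjusted p = 2.11e-07). The 48 h change exceeded the 24 h change by 0.70 (SE 0.178, adjusted p = 0.0223), while between control times the gene changed by -0.57 (adjusted p = 0.0680). The difference did not pass under the hybridisation-control scaling (0.55, adjusted p = 0.129), in the mean of the probe sets (0.30, adjusted p = 0.169) or without Aa replicate 3 at 48 h (0.66, adjusted p = 0.0502).

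ABCB10, an inner-membrane transporter that supports heme synthesis, read 10.15, 10.19 and 9.94 with Aa and 9.22, 8.89 and 9.22 without at 24 h. At 48 h it read 10.02, 9.64 and 10.01 against 9.31, 8.97 and 8.91. The groups did not overlap. Its log2 change was 0.98 (SE 0.154, adjusted p = 0.000344) and 0.83 (adjusted p = 0.000672), or 1.98-fold and 1.78-fold, and at 48 h it was 0.39 under the hybridisation-control scaling (adjusted p = 0.100). ABCB8, part of a mitochondrial potassium channel, changed by -0.94 (adjusted p = 0.0750) and -0.37 (adjusted p = 0.441). Its groups overlapped at both times. The 24 h value passed with the replicate block (adjusted p = 0.00326), without Aa replicate 1 (-1.23, adjusted p = 0.0404) without control replicate 2 (-1.28, adjusted p = 0.0288) and under the hybridisation-control scaling (-1.22, adjusted p = 0.0280). ABCB9, a lysosomal peptide transporter, changed by 0.37 (adjusted p = 0.216) and 0.56 (adjusted p = 0.0582), and passed with the block at both times (adjusted p = 0.0242 and 0.00258). At 48 h it also passed without control replicate 1 at 48 h (0.67, adjusted p = 0.0491), without Aa replicate 2 at 48 h (0.72, adjusted p = 0.0301), and without Aa replicate 1 or control replicate 1 at 24 h (adjusted p = 0.0423 and 0.0347). Quantile normalisation (adjusted p = 0.0330), the mean of the probe sets (adjusted p = 0.0444) and the arrays of 48 h alone (adjusted p = 0.0372) gave a pass too.

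In subfamily D, ABCD4 rose and the chosen probe set of ABCD3 did not pass. ABCD4 works in the export of cobalamin, vitamin B12, from lysosomes. It read 9.27, 9.47 and 9.07 with Aa and 7.32, 7.62 and 7.44 without at 24 h. Readings at 48 h were 9.47, 9.39 and 9.44 with Aa and 7.59, 7.82 and 7.57 without. All 6 Aa arrays were above all 6 controls. ABCD4 was 3.50-fold higher at 24 h (log2 change 1.81, SE 0.125, adjusted p = 1.08e-06) and 3.41-fold at 48 h (1.77, adjusted p = 6.93e-07). ABCD3, which imports fatty acids and bile acid precursors into peroxisomes, changed by -0.23 (adjusted p = 0.207) and -0.32 (adjusted p = 0.0637). The later value passed with the replicate block (adjusted p = 0.0403) and without Aa replicate 2 or 3 at 24 h (adjusted p = 0.0489 and 0.00691). Its other probe set over the limit, the one of higher variance, passed at both times, at -0.41 (adjusted p = 0.0309) and -0.73 (adjusted p = 0.000793), as did the mean of both at -0.32 (adjusted p = 0.0276) and -0.53 (adjusted p = 0.00113). With an intensity trend in the variance, or with only the arrays of 48 h, the later value passed too (adjusted p = 0.0435 and 0.0302). Under the hybridisation-control scaling both passed, at -0.51 (adjusted p = 0.0176) and -0.77 (adjusted p = 0.000933). ABCD2 was at background.

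All 4 ribosome-binding ATPases were tested, and all 4 were higher at 48 h, where 30.6% of all genes were. Only ABCF3 had passed at 24 h. Between control times the genes changed by -0.24 (ABCE1), -0.32 (ABCF1), -0.29 (ABCF2) and -0.25 (ABCF3), and none of these changes passed. The median log2 change of the 4 was 0.36 at 24 h and 0.83 at 48 h. ABCF3, the human relative of a yeast protein that helps to activate the stress kinase GCN2, read 9.04, 8.76 and 8.95 with Aa and 7.66, 7.38 and 7.72 without at 24 h. At 48 h the values were 9.00, 8.97 and 9.13 against 7.44, 7.09 and 7.46. Its groups were far apart at both times. ABCF3 was 2.51-fold higher at 24 h (log2 change 1.33, SE 0.135, adjusted p = 1.65e-05) and 3.25-fold at 48 h (1.70, adjusted p = 1.48e-06).

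ABCF2 read 10.55, 10.25 and 10.71 with Aa and 10.10, 9.84 and 10.33 without at 24 h. Later, at 48 h, it read 10.83, 10.62 and 11.08 against 9.77, 9.54 and 10.10. The groups overlapped at 24 h, although each Aa array was above the control of the same number. ABCF2 was 2.06-fold higher at 48 h (log2 change 1.04, SE 0.189, adjusted p = 0.000594), and at 24 h its change of 0.41 had an adjusted p of 0.0972, or 0.000558 with the replicate block. In the mean of its probe sets the 24 h change was 0.88 (adjusted p = 0.000188). That mean includes 207623_at, which changed by 2.62. The other probe sets not used changed by 0.76 (209246_at), 0.28 (209247_s_at) and, at background, 0.34 (214232_at). ABCF1, which takes part in translation initiation, changed by 0.31 at 24 h (adjusted p = 0.0650, and 0.00532 with the block). At 48 h ABCF1 was 1.54-fold higher with Aa than on controls (0.62, adjusted p = 0.00149). Its means were 10.35 with Aa and 10.03 without at 24 h, and 10.33 and 9.71 at 48 h. Its 24 h value also passed without control replicate 2 at 48 h, which enters through the shared spread (adjusted p = 0.0417), and with equal array medians (adjusted p = 0.0371). ABCE1, which splits ribosomes after termination, changed by 0.06 at 24 h (adjusted p = 0.718). At 48 h ABCE1 was 1.27-fold higher with Aa than on controls (0.35, SE 0.115, adjusted p = 0.0199). Its means were 12.06 with Aa and 12.01 without at 24 h, and 12.11 and 11.76 at 48 h. The ABCE1 call was lost without Aa replicate 2 (0.34, adjusted p = 0.0518) or replicate 3 (0.32, adjusted p = 0.0603), or without control replicate 1 (0.28, adjusted p = 0.0774) or replicate 2 (0.33, adjusted p = 0.0575). Under the hybridisation-control scaling ABCE1 turned to -0.23 and -0.09, and ABCF1 at 48 h was 0.18 (adjusted p = 0.350).

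Of 4 pseudogenes that match the symbol rule, 3 were tested and ABCC13 was not. ABCA11P read 7.58, 7.79 and 7.94 with Aa and 4.80, 5.51 and 5.73 without at 24 h. At 48 h it read 7.20, 7.29 and 7.41 against 4.84, 4.96 and 5.06. Its Aa arrays were all far above the controls, at 5.35-fold (log2 change 2.42, SE 0.203, adjusted p = 4.15e-06) and 5.08-fold (2.34, adjusted p = 2.77e-06). ABCA17P, the neighbour of ABCA3, read 5.94, 5.93 and 6.05 with Aa and 6.95, 7.05 and 7.37 without at 24 h. At 48 h it read 6.64, 6.44 and 6.48 against 7.15, 6.75 and 7.33. It was lower with no overlap, by 2.22-fold (-1.15, SE 0.155, adjusted p = 0.000121) and 1.47-fold (-0.56, adjusted p = 0.00850). ABCC6P1 read 4.63, 4.06 and 4.06 with Aa and 2.71, 2.54 and 2.48 without at 24 h, and thus passed the limit only through the group in which it was high. Taken with the controls at log2 4 it was at least 1.19-fold higher at 24 h. Its adjusted p of 6.46e-05 came from control values under the limit, and with a floor at log2 4 the change was 0.25 (adjusted p = 0.147). At 48 h every array lay under the limit (3.69, 2.89 and 3.09 with Aa, and 2.60, 2.45 and 2.53 without), so no fold is given and the pass there (adjusted p = 0.0118) orders values of background. It was lost with the floor and under the hybridisation-control scaling (adjusted p = 0.365). The probes of a pseudogene can take up RNA of its parent gene.

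Several genes were measured by more than 1 probe set over the limit, and these did not all move together. For ABCC3 the probe set used and 209641_s_at changed alike, by 1.12 and 1.14 at 24 h and 1.57 and 1.54 at 48 h (log2). Its other probe sets changed by 0.05 and 0.32 (230682_x_at), -0.52 and -1.01 (239217_x_at), and -0.26 and -0.20 (242553_at) at the same times. A change of at least 1 upward was thus seen in 2 of the 5 probe sets of ABCC3. The 3 ABCC4 probe sets over the limit were all lower, and the other was at background. The changes were -0.85 and -1.38 for the one used, -1.70 and -2.31 for 1554918_a_at, and -1.80 and -2.61 for 1555039_a_at. For ABCF2 all 4 probe sets over the limit were higher, and 207623_at stood apart. It read 5.80, 5.56 and 4.59 with Aa at 24 h and 8.37, 8.51 and 8.50 at 48 h, with all 6 controls between 2.68 and 2.81. That is at least 2.49-fold at 24 h and at least 22.0-fold at 48 h over controls taken at the limit, where the probe set used gave 2.06-fold at 48 h. In RefSeq, ABCF2 lies within the readthrough locus ABCF2-H2BK1. For ABCB6 the second probe set, 203191_at, lay near the limit and changed by -0.01 and -0.12.

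**Figure D3:**
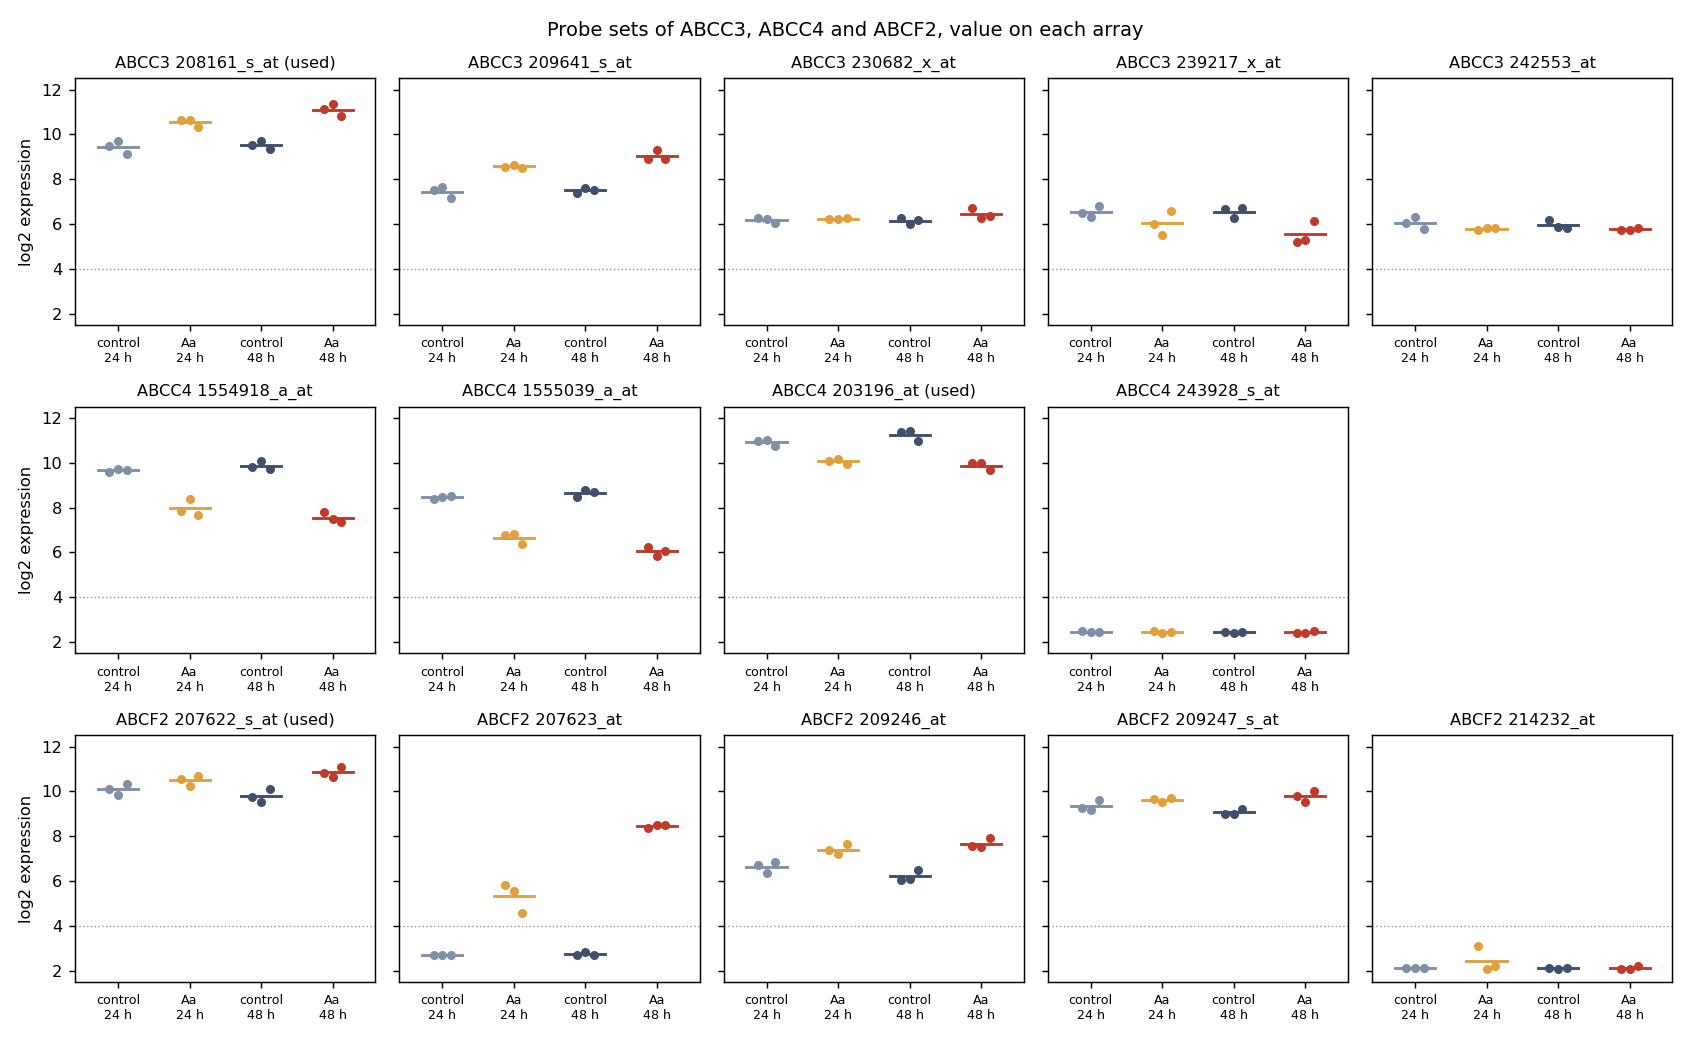
Log2 expression on each array (vertical axis) for every single-gene probe set of ABCC3, ABCC4 and ABCF2, in control and Aa groups at 24 h and 48 h (horizontal axis). Points are arrays, bars are means of 3, the dotted line is log2 4, and levels of different probe sets cannot be set against each other. ABCF2 probe set 207623_at rose from background to 8.37 to 8.51 on the Aa arrays at 48 h.

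The tested ABC genes also differed in the length of DNA they span, and length went with the direction of change. Classes bounded at 30 and 100 kb were chosen after the values were seen, with spans from RefSeq (GRCh38.p14). Of 10 genes under 30 kb, 4 were higher and 0 lower at 24 h, and 8 were higher and 0 lower at 48 h. The higher counts at both times, and the correlations below, include ABCC6P1 (27.0 kb). It was tested only through its Aa arrays at 24 h and passed at neither time with a floor at log2 4. Among all 5626 tested genes of that class, 30.4% were higher and 15.3% lower at 24 h, and 39.9% and 21.3% at 48 h. Of 8 ABC genes of 30 to 100 kb, 3 were higher and 1 lower at 24 h, and 4 higher and 2 lower at 48 h. Among all 3587 genes of that class, 28.9% were higher and 18.4% lower at 24 h, and 28.6% and 33.1% at 48 h. Of 6 ABC genes over 100 kb, 0 were higher and 4 lower at 24 h, and 0 higher and 3 lower at 48 h. Among all 1962 genes of that class, 9.99% were higher and 52.5% lower at 24 h, and 7.65% and 71.2% at 48 h. The direction in long ABC genes was thus that of long genes at large. The shortest were ABCF3 (7.81 kb), ABCB6 (9.19 kb) and ABCF2 (15.7 kb), and the longest ABCC4 (282 kb), ABCB1 (210 kb), ABCA12 (207 kb) and ABCC1 (194 kb). The Spearman correlation of span with change over the 24 genes was -0.60 at 24 h and -0.74 at 48 h, beside -0.25 and -0.37 over 11175 genes. Points of a comparison share the same 6 arrays.

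**Figure D4:**
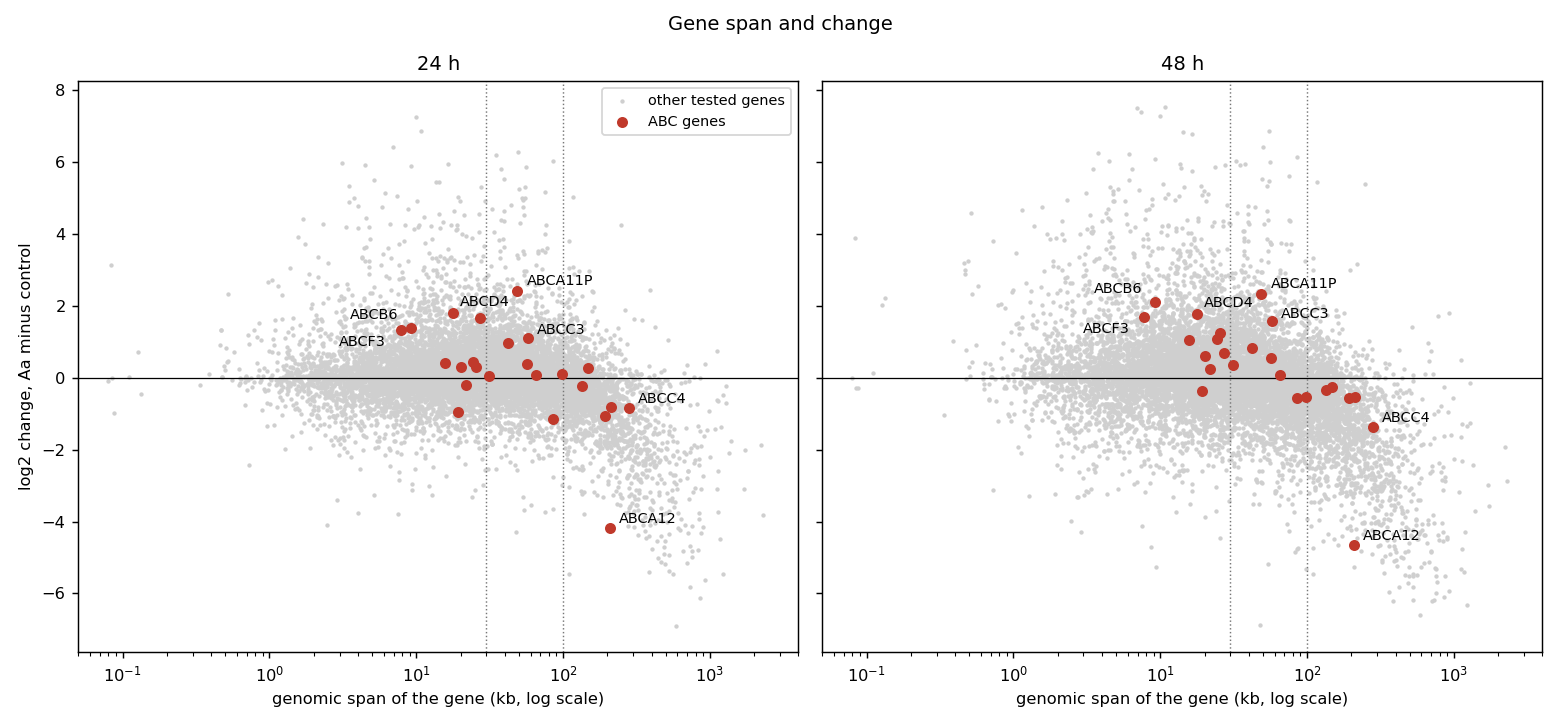
Log2 change, Aa minus control (vertical axis), against the genomic span of the gene in kb (horizontal axis, log scale), at 24 h (left) and 48 h (right). Red points are the 24 tested ABC genes, grey points the other tested genes with a RefSeq span, and dotted lines mark 30 and 100 kb. No ABC gene over 100 kb was higher by the test at either time.

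Without the replicate block, the 48 h and 24 h changes differed in 3 of 24 ABC genes, against 19.5% of all genes tested. The change was larger at 48 h for ABCA7 and ABCB6 (2 higher, background 6.8%). ABCA7 means went from 7.32 to 8.14 with Aa and from 7.01 to 6.88 on controls. ABCB6 means went from 8.97 to 9.11 with Aa and from 7.57 to 7.01 on controls, so most of its difference lay in the controls. ABCC6P1 had a smaller rise by the fitted values, -0.98 (SE 0.292, adjusted p = 0.0394, 1 lower, background 12.7%). The ABCC6P1 value rests on arrays under the limit and was -0.25 with a floor at log2 4 (adjusted p = 0.373). With the replicate block 9 were higher and 4 lower, and the share over all genes was not counted with the block. Leaving out Aa replicate 3 at 48 h gave 1 higher, and leaving out Aa replicate 1 at 48 h gave 2 lower. The ABCC6P1 call was lost on leaving out any single array other than Aa replicate 3 at 24 h and Aa replicate 1 at 48 h (10 of 12, adjusted p from 0.0526 to 0.0880). The lower count then was 0, except without control replicate 2 at 24 h or control replicate 1 or 3 at 48 h, where another gene was called. Between the controls of 24 h and 48 h, limma called 0 of 24 ABC genes (background 0.635%), with 1 higher and 3 lower at an unadjusted p under 0.05.

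Genes that work with ABC transporters were counted from lists of partners, with the share of all genes as above. Among 18 tested transcriptional regulators, 5 were higher and 4 lower at 24 h, and 4 higher and 8 lower at 48 h. PPARGC1A, a coactivator of nuclear receptors, fell by 2.65 on the log2 scale at 48 h (adjusted p = 9.48e-05). RXRA, the partner of the LXR, PXR and FXR receptors, fell by 2.51 (adjusted p = 7.99e-05). In cholesterol efflux, 3 of 15 genes were higher and 3 lower at 24 h, and 4 higher and 2 lower at 48 h. LCAT, which esterifies the cholesterol of lipoproteins, was over the limit only on Aa arrays, and thus was tested only through the groups in which it was high. It was at least 4.75-fold higher at 24 h and at least 8.11-fold at 48 h. Its adjusted p of 2.96e-06 and 3.61e-07 came from control values under the limit. MYLIP, an LXR target that degrades the LDL receptor, rose by 2.06 at 48 h (adjusted p = 3.19e-05). Enzymes of conjugation upstream of ABCC exporters gave 6 higher and 2 lower of 16 at 24 h, and 5 and 4 at 48 h. MGST2, a microsomal glutathione transferase, fell by 1.08 (adjusted p = 5.52e-05) and EPHX1, the microsomal epoxide hydrolase, rose by 0.90 at 48 h (adjusted p = 0.00310).

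Partners of the mitochondrial transporters in iron-sulfur and heme metabolism gave 6 higher and 4 lower of 18 at 24 h, and 9 and 5 at 48 h. FLVCR1, a heme and choline transporter, was 3.03-fold higher at 48 h (adjusted p = 9.28e-06). LYRM4, a subunit of the cysteine desulfurase complex, was 3.03-fold lower (adjusted p = 2.82e-06). Beside ABCD3, peroxisomal fatty acid genes gave 3 higher and 6 lower of 14 at 24 h and 3 and 9 at 48 h (median log2 change -0.34 and -0.64). SLC27A2, which activates and takes up very long-chain fatty acids, was at least 27.0-fold lower at 48 h. Its adjusted p of 3.26e-06 came from a fit that used values under the limit on 2 Aa arrays. ACSL1, an acyl-CoA synthetase, fell by 1.26 at 48 h (adjusted p = 0.00109).

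Of 10 cobalamin genes beside ABCD4, 2 were higher and 4 lower at 24 h, and 1 higher and 7 lower at 48 h, with medians of -0.37 and -1.12. LMBRD1, the lysosomal partner of ABCD4, was 2.28-fold lower at 24 h (adjusted p = 0.000132) and 4.67-fold lower at 48 h (adjusted p = 8.25e-07). MMAA, which guards the loading of the mitochondrial mutase, fell by 1.86 at 48 h (adjusted p = 0.000207). Among 18 ribosome recycling and translation factors, 5 were higher and 0 lower at 24 h, and 8 higher and 1 lower at 48 h. GCN1, the activator of GCN2, rose by 1.49 (adjusted p = 1.48e-06) and EIF5, an initiation factor, by 1.29 (adjusted p = 4.65e-05) at 48 h.

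ABC genes with other symbols were set beside these. TAP1 and TAP2, which pump peptides into the endoplasmic reticulum for class I antigen presentation, were both higher at both times. TAP1 rose 2.50-fold and 3.03-fold (adjusted p = 1.57e-05 and 2.06e-06), and TAP2 3.78-fold and 5.86-fold (adjusted p = 6.29e-06 and 4.48e-07). Of their 9 peptide loading partners, 0 were higher and 2 lower at each time. TAPBPL, a peptide editor, was 2.45-fold lower at 48 h (adjusted p = 3.03e-05), and PSMB9, an immunoproteasome subunit, 1.80-fold lower (adjusted p = 0.0248). CFTR, the chloride channel of the family, was not over the limit.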

How the data were processed

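Biotinylated cRNA of 12 cultures was hybridised to Affymetrix arrays, per the labels' protocols. The authors deposited log2 expression values, and the submitters' processing notes name GCRMA. No source used here gives its version or says which arrays it normalised jointly. GCRMA sets arrays to nearly one distribution, so a shift shared by most transcripts would not appear. Array medians lay between 2.91 and 3.02, and the number of arrays limits precision.

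From these values, 1 probe set per gene was fitted by lmFit and eBayes of limma 3.58.1 under R 4.3.3 (4 group means, 12 arrays, 8 residual and 2.79 prior degrees of freedom). Genes over log2 4 on at least 3 arrays (11184) were adjusted together by Benjamini-Hochberg, and every adjusted p is limma's. The steps were tested on simulated data. Where dimmer arrays lay under log2 4 they entered folds at log2 4, as "at least". Probe sets naming several genes, 2 of them for ABC genes, were left out.

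Full values are given for ABC genes that passed with a log2 change of at least 1 at either time and for ABCA1, ABCB1, ABCC1 to ABCC4, ABCG1 and ABCG2, with other genes singled out after their values were seen, and at most 2 genes per partner list. The members and lists were chosen with earlier results of these data known. Deviations from group means correlated at 0.279 to 0.577 in all 18 same-number pairs and at -0.371 to -0.0286 in 36 others, so replicate numbers paired the samples. The fit behind the main calls left this pairing out. Alternatives covered pairing, scaling, filters, floors, probe sets, the variance model and leaving out arrays.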

Additional observations from a re-analysis of the deposited data

Results flagged for a closer look

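The difference between the 48 h and 24 h changes passed limma's test for 3 ABC genes without the replicate block. With the block, 9 of 24 were higher and 4 lower. The share over all genes was not counted with the block for this difference, so these counts have no background beside them. ABCA7 differed by 0.95 (0.31 at 24 h and 1.26 at 48 h), and ABCB6 by 0.70 (1.40 and 2.10). ABCC6P1 differed by -0.98, with most of its arrays under the limit. A further signal lay in a probe set that was not used for its gene. ABCF2 probe set 207623_at averaged log2 5.32 on the Aa arrays at 24 h and 8.46 at 48 h, while every control array was under log2 4. Groups of 3 arrays were not searched for single arrays far from the others.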

How the results depend on the processing

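The counts of ABC genes higher and lower kept within 1.5 times of the reported ones under most settings. Leaving out 1 array gave 7 to 8 higher and 4 to 6 lower at 24 h, 11 to 13 and 4 to 6 at 48 h, and 1 to 3 and 0 to 2 for the difference between times. With the replicate block, 11 were higher at 24 h, 9 higher and 4 lower for the difference, and 1 and 4 between control times. For the difference and between control times, the share over all genes was not counted with the block. Beyond the block values given with each gene and these counts, the block changed no other call. Scaling to 18 hybridisation controls moved the all-gene median to -0.26 at 24 h and -0.47 at 48 h, with 1668 higher and 3860 lower of all genes at 24 h, and 1808 and 5889 at 48 h. ABC genes then split 7 and 7 at 24 h and 8 and 8 at 48 h, with 0 higher for the difference and 6 lower between controls. Signs turned there at 24 h for ABCA1 (-0.0092), ABCA3 (-0.20), ABCC5 (-0.19) and ABCE1 (-0.23), and at 48 h for ABCA2 (-0.21), ABCA3 (-0.37) and ABCE1 (-0.091). The mean of all probe sets turned ABCE1 at 24 h (-0.025) and ABCB8 at 48 h (0.012). Leaving out 1 array turned ABCC5 at 24 h (range -0.041 to 0.29) and ABCA3 at 48 h (-0.080 to 0.23, with a second negative value of -0.029). The lower count for the difference was 0 with no filter, over log2 5, or over log2 4 on 6 arrays, and 2 with equal medians, the mean of probe sets or the highest-variance probe set. The cause of these moves was not tested. Of single-gene values under the other settings, 547 kept direction and side of the threshold, 27 newly passed, 16 no longer passed and 9 changed sign. Values under log2 4 carry no order.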
